A study of Sus scrofa with 6 samples.

Results

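Amino acids enter and leave cells through carriers of the solute carrier (SLC) families that sit in the plasma membrane, and 10 genes for such carriers are described here across 6 RNA-seq libraries of immature pig Sertoli cells. The genes were chosen by symbol, as the rows of the deposited table whose pig Ensembl identifier maps to SLC7A11, SLC7A5, SLC43A1, SLC3A2, SLC7A1, SLC6A9, SLC1A4, SLC1A5, SLC38A1 or SLC38A2, and all 10 of the 10 symbols matched 1 row each of the 20731 in the table. The choice was made with earlier results of these data known. Sertoli cells are the somatic cells of the testis that enclose and feed the germ cells. In 3 libraries, labelled MT, cells were treated with the pineal hormone melatonin at 10 nM for 36 h. The other 3, labelled Control, carry no stated dose, solvent or time. No genotype, age or animal is given for either group, and the labels do not say whether replicates came from separate cultures, so p-values reflect the scatter among these libraries alone, which may be technical.

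The carriers differ in what they move and in how they are built. SLC3A2 is a heavy chain with a single membrane span that carries no amino acid itself but is bound by a disulfide bridge to light chains, among them SLC7A5, which brings in leucine and other large neutral amino acids, and SLC7A11, which takes up cystine in exchange for glutamate. SLC43A1 moves large neutral amino acids without a heavy chain, SLC7A1 takes up arginine and lysine, and SLC6A9 takes up glycine together with sodium and chloride. SLC1A4 and SLC1A5 exchange small neutral amino acids such as alanine and serine, SLC1A5 also glutamine, and SLC38A1 and SLC38A2 bring in glutamine and alanine with sodium. In human and mouse cells many of these genes are switched on by the transcription factor ATF4 when amino acids run short. These roles are known mainly from human and mouse cells and are given as background.

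Values are FPKM, in which the fragment number of a gene is divided by gene length and library size, so levels can be set side by side between genes within a library. Library totals, recovered from the spacing of low values, were between 20484755 and 21500665 reads in MT libraries and between 19579279 and 20961380 in Control libraries. Control 3 stood apart from the other 5 libraries. It held the highest score, 0.39, on the component with 68.2% of the variance, against -0.10 to 0.07 in MT libraries and -0.21 in both other Control libraries. Across genes, which are not independent replicates, it correlated with MT libraries at 0.952 to 0.975 and with Control 1 and Control 2 at 0.938 and 0.939. Log2 differences are therefore given with and without it. Of the 16 Sertoli cell markers looked for, 13 matched a row and 8 averaged at least 1 FPKM. WT1 averaged 11.05, AMH 12.8 and SOX9 1.91 FPKM, while INHA, NR5A1, DHH and DMRT1 each averaged under 0.05. Of the other cell types looked for, the smooth muscle gene TAGLN averaged 186.8 FPKM, while DES, ACTA2 and MYH11 of the same list averaged 6.96, 0.12 and 0.014. Of the fibroblast genes COL1A1 averaged 3.69 FPKM, and DCN and PDGFRA 0.0041 and 0.028. Of 4 macrophage genes 3 matched, and CD68 averaged 4.27 FPKM, CSF1R 0.040 and CD163 0.0011. Of 6 Leydig cell genes 3 matched, and STAR averaged 2.32 FPKM, CYP11A1 1.95 and CYP17A1 0.0088. Of 5 germ cell genes 2 matched, UCHL1 at 1.06 FPKM and DDX4 at 0.014. Of 3 endothelial genes 2 matched, PECAM1 at 0.24 FPKM and CDH5 at 0.0019. The summed level of the 13 Sertoli cell markers ranged over 6587 to 6954 FPKM in MT and 5575 to 6613 in Control, most of it from CLU and VIM, which averaged 3445 and 2793. SOX9 stood at 1.61 to 1.81 FPKM in MT and 1.81 to 2.40 in Control, AMH at 11.7 to 12.7 in MT and 11.3 to 15.6 in Control, and WT1 at 10.2 to 12.8 in MT and 10.00 to 11.0 in Control. The sum of the macrophage genes, nearly all of it CD68, was higher in every MT library, at 4.55 to 5.35 FPKM in MT and 3.18 to 4.19 in Control, and that of the 5 myoid markers, all matched, over 161.7 to 194.2 in MT and 160.3 to 264.8 in Control. The part of these markers in the results was not tested. In bulk RNA, fewer cells of a type and less RNA per cell cannot be told apart.

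MT was compared with Control to find which carriers differ in transcript level after melatonin. The glycine carrier SLC6A9 and the small neutral exchangers SLC1A4 and SLC1A5 were higher in every MT library than in any Control library. The pair SLC7A5 and SLC3A2 was higher in the MT mean, with Control 3 inside the range of the MT libraries. SLC7A1, SLC38A1, SLC38A2 and SLC7A11 overlapped between the groups, and SLC43A1 was near 0 throughout. Each gene was compared with limma on log2(FPKM + 1) over the 10950 genes that averaged at least 1 FPKM, with Benjamini-Hochberg adjustment and a threshold of 0.05, and 9 of the 10 carriers were among them. Over 6 libraries 0 of the 9 passed, as did 0 of all genes tested (0.0%), and 5 of the 9 had an unadjusted p under 0.05, all with a higher mean in MT. Of all genes, 517 (4.72%) had such a p, and 255 (2.33%) had it with a higher mean in MT. Without Control 3, 5 of the 9 passed, all of them higher in MT, while 1194 of all genes passed (10.9%), 469 of them higher in MT (4.28%). These 5 were SLC6A9, SLC1A4, SLC7A5, SLC3A2 and SLC1A5. Of those 469 genes, Control 3 lay above both other Control libraries in 439 (93.6%), and 141 (30.1%) kept the groups of 3 apart. The 3 carriers without overlap compare with 683 of all genes tested (6.24%) that were higher in every MT library.

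**Figure D1:**
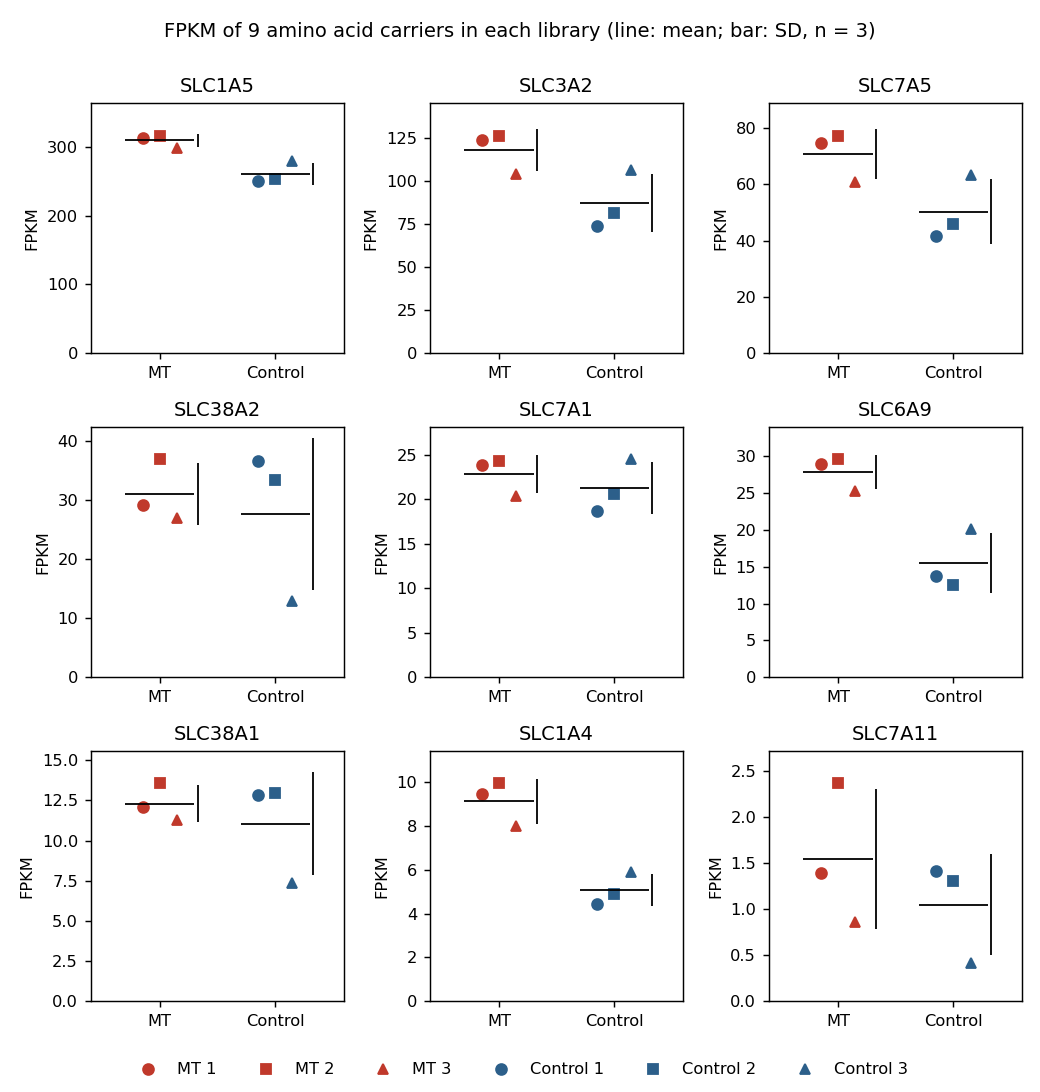
FPKM (y axis, from 0, a scale for each gene) of the 9 carriers that averaged at least 1 FPKM, for the 3 MT libraries on the left and the 3 Control libraries on the right of each panel, with the group mean as a line and the SD as a bar. SLC6A9, SLC1A4 and SLC1A5 show no overlap, and Control 3 (blue triangle) is the highest Control library in 6 panels and the lowest in 3.

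SLC6A9 (ENSSSCG00000039770, chromosome 6, 167267193 to 167301598) had the largest log2 difference of the 9 carriers over 6 libraries and without Control 3, though without Control 2 SLC1A4 (0.72) stood above it (0.71). It stood at 28.9, 29.6 and 25.3 FPKM in MT 1, MT 2 and MT 3, against 13.8, 12.5 and 20.1 FPKM in Control 1, Control 2 and Control 3. The lowest MT library thus lay above the highest Control library, and Control 3 lay between its own group and MT. The mean was 27.9 ± 2.33 FPKM in MT and 15.5 ± 4.09 in Control (SD, n = 3 each). The log2 difference was 0.84 (SE 0.18, limma adjusted p 0.45) over 6 libraries and 1.03 (SE 0.092, adjusted p 0.0066) without Control 3.

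SLC1A4 (ENSSSCG00000028282, chromosome 3, 76938102 to 76970519), the exchanger of alanine, serine and cysteine, was expressed at a lower level. It had the smallest p of the 9 over 6 libraries, and SLC6A9 had it without Control 3 and with quantile normalisation. Its FPKM was 9.46, 9.95 and 7.99 in MT 1 to MT 3, against 4.46, 4.89 and 5.90 in Control 1 to Control 3. The groups did not overlap, and all 3 Control libraries lay well below MT 3, the lowest MT library. Group means were 9.13 ± 1.02 FPKM in MT and 5.09 ± 0.74 in Control (SD, n = 3 each), a ratio of 1.80. On the log2 scale the difference was 0.74 (SE 0.14, limma adjusted p 0.35), which placed the gene at rank 36 by p among the 10950, and 0.83 (SE 0.10, adjusted p 0.018) without Control 3.

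SLC1A5 (ENSSSCG00000003105, chromosome 6, 52647432 to 52661464), which also exchanges glutamine, was by far the most abundant of the 10, above 98.7% of the genes tested. MT 1 to MT 3 had 312.8, 316.4 and 298.7 FPKM, against 249.7, 253.0 and 279.5 in Control 1 to Control 3. Again no MT library fell within the Control range, but the step was small beside that of SLC1A4. The ratio of the means was 1.19 over 6 libraries and 1.23 without Control 3, with log2 differences of 0.25 (SE 0.098, limma adjusted p 1.0) and 0.30 (SE 0.062, adjusted p 0.037). The ratio of SLC1A4 to SLC1A5 was 0.0302, 0.0315 and 0.0268 in MT 1 to MT 3, against 0.0179, 0.0193 and 0.0211 in Control 1 to Control 3. The ratio was higher in all 3 MT libraries, by 0.60 on the log2 scale, and by 0.66 without Control 3 (over 6 libraries exact two-sided permutation p 0.1, n = 3 each, the smallest p that 3 against 3 allows; adjusted p 0.4 over the 4 pairs tested).

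SLC7A5 (ENSSSCG00000032996, chromosome 6, 1545940 to 1574298) and its partner SLC3A2 (ENSSSCG00000022404, chromosome 2, 8892071 to 8919070) had nearly parallel values across the 6 libraries. SLC7A5 stood at 74.6, 77.2 and 60.7 FPKM in MT 1 to MT 3, against 41.6, 46.0 and 63.3 in Control 1 to Control 3. SLC3A2 stood at 123.7, 126.3 and 103.8 FPKM in MT 1 to MT 3, against 73.9, 81.2 and 106.2 in Control 1 to Control 3. For both genes MT 1 and MT 2 were the highest, Control 1 and Control 2 the lowest, and MT 3 and Control 3 close to each other in between, with Control 3 slightly above MT 3. Control 3 lay 77.5% of the way from the other Control libraries to the MT mean for SLC7A5 and 75.6% for SLC3A2, on the log2 scale. The log2 difference of SLC7A5 was 0.50 (95% interval 0.067 to 0.94, limma adjusted p 0.94) over 6 libraries and 0.68 (0.41 to 0.95, adjusted p 0.027) without Control 3. That of SLC3A2 was 0.44 (0.058 to 0.83, adjusted p 0.95) and 0.59 (0.36 to 0.83, adjusted p 0.028).

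**Figure D2:**
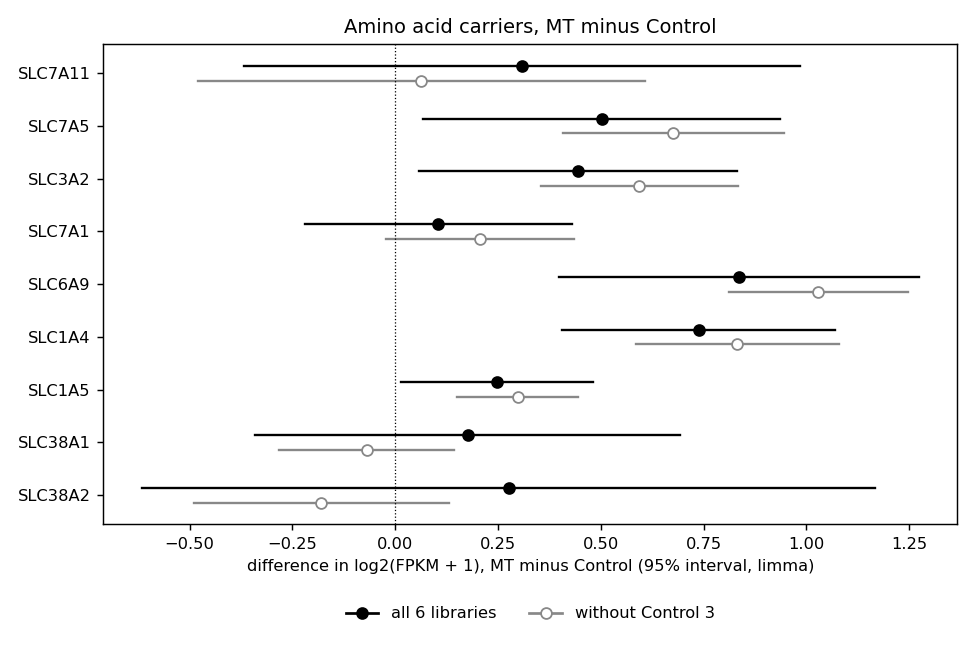
Difference in log2(FPKM + 1), MT minus Control (x axis), of the 9 carriers tested (rows), with 95% intervals from limma, for all 6 libraries (filled points) and without Control 3 (open points). The points of SLC38A1 and SLC38A2 change sides of 0 when Control 3 is left out (0.18 and -0.07, 0.28 and -0.18), and those of the other 7 stay above 0.

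The light chain SLC7A5 kept nearly the same ratio to the heavy chain in every library. The ratio was 0.603, 0.612 and 0.585 in MT 1 to MT 3, against 0.562, 0.566 and 0.596 in Control 1 to Control 3. Its full range over the 6 libraries was 0.562 to 0.612, while the level of each gene varied far more. The groups overlapped, and MT exceeded Control by 0.062 on the log2 scale, and by 0.089 without Control 3 (over 6 libraries exact two-sided permutation p 0.2, n = 3 each, adjusted p 0.4). Likeness between genes was also measured as the root mean square distance between log2(FPKM + 1) profiles over the 6 libraries, each centred on its own mean. Among 9482 other tested genes with a symbol, the nearest to SLC7A5 was SLC3A2, at 0.042, and the nearest to SLC3A2 was SLC7A5. PYCR1, an enzyme that makes proline in mitochondria, came next to SLC7A5 at 0.064, followed by LOXL2, a collagen cross-linking enzyme, at 0.071. C1QTNF4, a secreted protein with C1q domains, at 0.054 and PYCR1 at 0.054 came next to SLC3A2. C1QTNF4 had at most 2.24 FPKM, in MT 2, a level at which the added 1 makes changes come out too small. PYCR1 stood at 73.0, 69.6 and 60.6 FPKM in MT 1 to MT 3, against 42.7, 45.0 and 65.5 in Control 1 to Control 3, so it too had Control 3 among the MT libraries.

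SLC7A11 (ENSSSCG00000022649, chromosome 8, 88608083 to 88690589), the other light chain, did not follow the heavy chain. It stood at 1.40, 2.37 and 0.86 FPKM in MT 1 to MT 3, against 1.42, 1.31 and 0.42 in Control 1 to Control 3. MT 2 was the highest and Control 3 the lowest, and MT 1 lay beside Control 1 and Control 2. These levels rested on 355, 572 and 211 recovered reads in MT 1 to MT 3, against 327, 310 and 104 in Control 1 to Control 3. The log2 difference was 0.31 (95% interval -0.37 to 0.98, limma adjusted p 1.0) over 6 libraries and 0.063 (-0.48 to 0.61, adjusted p 0.86) without Control 3, and over 6 libraries with a pseudocount of 0.1 in place of 1 it was 0.56. Without MT 2 it was 0.084 and without MT 3 it was 0.51. The ratio of SLC7A11 to SLC3A2 ranged over 0.0083 to 0.0188 in MT and 0.0040 to 0.0192 in Control (log2 difference 0.18, exact two-sided permutation p 0.9, n = 3 each). That difference was -0.54 without Control 3, -0.14 without MT 2 and -0.14 on log2(FPKM + 1). The 3 genes with the profiles nearest to SLC7A11 were RALGPS2, a guanine nucleotide exchange factor for Ral proteins, at 0.10, FKBP14, a prolyl isomerase of the endoplasmic reticulum, at 0.12 and KIAA1328 at 0.12. SLC38A1 came at place 68 with 0.19, while SLC3A2 was at place 5658 with 0.44 and SLC7A5 at place 6189 with 0.46.

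**Figure D3:**
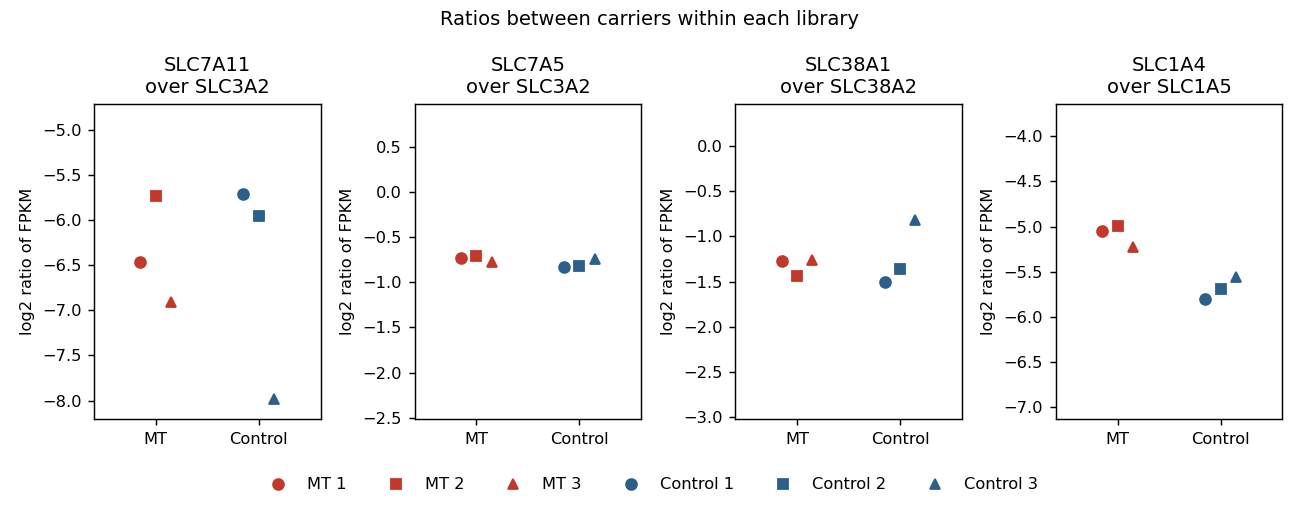
log2 ratio of FPKM (y axis, each panel spanning the same number of log2 units) between pairs of carriers in the 3 MT libraries (left of each panel) and the 3 Control libraries (right). SLC7A5 over SLC3A2 stays between 0.562 and 0.612 as a plain ratio, SLC1A4 over SLC1A5 parts the groups, and Control 3 lies apart in the panels of SLC7A11 over SLC3A2 and SLC38A1 over SLC38A2.

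The sodium-coupled glutamine carriers SLC38A1 (ENSSSCG00000000807, chromosome 5, 77009840 to 77076723) and SLC38A2 (ENSSSCG00000000808, chromosome 5, 77113491 to 77127715) lie next to each other, 36767 bases apart. SLC38A1 stood at 12.1, 13.6 and 11.3 FPKM in MT 1 to MT 3, against 12.9, 13.0 and 7.35 in Control 1 to Control 3. SLC38A2 stood at 29.2, 36.9 and 27.0 FPKM in MT 1 to MT 3, against 36.6, 33.4 and 12.9 in Control 1 to Control 3. In both genes 5 libraries were close together and Control 3 was low. Its log2 deviation from the mean of the other Control libraries was -0.74 for SLC38A1 and -1.37 for SLC38A2. The mean differences of 0.18 (95% interval -0.34 to 0.69) and 0.28 (-0.62 to 1.17) thus turned to -0.07 (-0.28 to 0.14) and -0.18 (-0.49 to 0.13) without Control 3, and neither passed limma in either fit (adjusted p 1.0 each over 6 libraries, 0.60 and 0.35 without Control 3). The ratio of SLC38A1 to SLC38A2 was 0.414, 0.368 and 0.417 in MT 1 to MT 3, against 0.351, 0.389 and 0.568 in Control 1 to Control 3. Its log2 difference was -0.096 over 6 libraries (exact two-sided permutation p 0.9, n = 3 each) and 0.11 without Control 3.

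SLC7A1 (ENSSSCG00000029456, chromosome 11, 6538053 to 6604654), the carrier of arginine and lysine, stood at 23.9, 24.3 and 20.4 FPKM in MT 1 to MT 3, against 18.7, 20.6 and 24.5 in Control 1 to Control 3. Control 3 was the highest of all 6 libraries and MT 3 lay among the Control values. The log2 difference was 0.11 (95% interval -0.22 to 0.43, limma adjusted p 1.0), and 0.21 (-0.021 to 0.43, adjusted p 0.17) without Control 3. SLC43A1 (ENSSSCG00000036359, chromosome 2, 13407046 to 13436270), the carrier of large neutral amino acids that needs no heavy chain, was listed at 0, 0.016 and 0.016 FPKM in MT 1 to MT 3, against 0, 0.067 and 0 in Control 1 to Control 3. These values stand for 0, 1 and 1 recovered reads in MT libraries and 0, 4 and 0 in Control libraries. A count of 0 allows up to 3 reads, or 0.047 FPKM in MT 1, 0.051 in Control 1 and 0.048 in Control 3, as far as counting error goes. No fold change or ratio to SLC7A5 is given for it.

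In order of the mean over 6 libraries, the 10 carriers ran from SLC1A5 through SLC3A2, SLC7A5, SLC38A2, SLC7A1, SLC6A9, SLC38A1, SLC1A4 and SLC7A11 to SLC43A1. SLC1A5 was above SLC3A2, SLC3A2 above SLC7A5 and SLC7A5 above SLC38A2 in all 6 libraries, as were SLC38A1 above SLC1A4, SLC1A4 above SLC7A11 and SLC7A11 above SLC43A1. The middle of the order was not settled. SLC7A1 was above SLC6A9 in 3 of 6 libraries, the Control ones, while in MT SLC6A9 had at least 25.3 FPKM and SLC7A1 at most 24.3. SLC6A9 was above SLC38A1 in 5 of 6 libraries, all but Control 2. SLC38A2 was above SLC7A1 in 5 of 6 libraries, all but Control 3. The summed FPKM of the 10 was 616.1, 636.5 and 556.0 in MT 1 to MT 3, against 453.1, 465.9 and 520.2 in Control 1 to Control 3. SLC1A5 made up 49.7% to 53.7% of that sum in MT libraries and 53.7% to 55.1% in Control libraries, and SLC6A9 4.54% to 4.69% in MT and 2.68% to 3.87% in Control. SLC38A2 held 4.74% to 5.79% in MT and 2.49% to 8.09% in Control.

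Within MT, all 9 carriers tested were highest in MT 2, next in MT 1 and lowest in MT 3, an order found in 1979 of all genes tested (18.1%). Within Control, Control 3 was the highest library for 6 of the 9, among them all 5 that rose without it, and the lowest for SLC7A11, SLC38A1 and SLC38A2. Over all genes tested Control 3 was the highest Control library in 45.3% and the lowest in 48.3%. Among the 469 genes called higher in MT without Control 3, it was the highest Control library in 93.6%. Its place in those 5 carriers is therefore no separate result. What sets Control 3 apart was not tested.

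Carriers and regulators outside the 10 were taken from lists of their own. Of 30 other plasma membrane carriers of amino acids, 25 matched a row and 10 were tested. Their median log2 difference was -0.03 (0.07 without Control 3, 0.09 without MT 2). In MT, 4 of 10 were higher, and 6 of 10 without Control 3. The median was 0.31 for the 9 carriers above (0.51 without MT 3, 0.23 without MT 2, 0.30 without Control 3). Of these, 9 of 9 were higher, and 7 of 9 without Control 3. Over all genes tested the median was 0.02, with 56.0% higher. Without Control 3 it was -0.004, with 5406 of 10950 higher. Carriers and lists were chosen with earlier results of these data known, so the contrast between their medians is no independent test. None of the 10 passed limma over 6 libraries, and without Control 3, 1 rose and 1 fell, against 4.28% of all genes that rose and 6.62% that fell. The glutamate carrier SLC1A6 rose without Control 3 (log2 difference 0.35, limma adjusted p 0.038) and had 0.11 (adjusted p 1.0) over 6 libraries. SLC38A4, a carrier of neutral amino acids of the SLC38 family, fell without Control 3 (-0.36, adjusted p 0.047) and had -0.14 (adjusted p 1.0) over 6 libraries. It stood at 2.67, 3.08 and 2.93 FPKM in MT 1 to MT 3, against 4.04, 3.96 and 2.17 in Control 1 to Control 3, so that Control 3 lay below every MT library. SLC1A6 stood at 33.3, 31.5 and 31.5 FPKM in MT 1 to MT 3, against 23.7, 26.3 and 41.9 in Control 1 to Control 3, where Control 3 was the highest of all libraries. SLC43A2, a large neutral carrier related to SLC43A1, had 3.73 ± 0.75 FPKM in MT and 5.33 ± 1.31 in Control, and the taurine carrier SLC6A6 17.6 ± 3.50 and 13.5 ± 1.33 (SD, n = 3 each), in both cases with overlap. Their log2 differences were -0.41 and 0.34 over 6 libraries and -0.25 and 0.42 without Control 3. SLC36A1, a proton-coupled carrier of small amino acids, was higher in every MT library, at 2.87 ± 0.18 FPKM in MT and 2.36 ± 0.37 in Control. This held for 1 of the 10 genes of the list, against 6.24% of all genes tested. SLC36A1 did not pass in either fit (log2 difference 0.21 over 6 libraries and 0.27 without Control 3).

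Carriers of lysosomes and mitochondria had medians close to 0. Of 8 lysosomal carriers 6 were tested, with a median log2 difference of -0.05 over 6 libraries and -0.01 without Control 3. Of 12 mitochondrial carriers 8 were tested, with medians of 0.00 and 0.05, and no member of either list passed limma over 6 libraries or without Control 3. The lysosomal carriers with the smallest p were MFSD12 (cysteine), SLC15A4 (histidine and peptides), CTNS (cystine) and SLC38A7 (glutamine), with log2 differences of -0.16, -0.09, -0.11 and 0.06 over 6 libraries and 0.02, -0.04, -0.05 and 0.17 without Control 3. Among mitochondrial carriers SFXN1, which carries serine, stood at 13.5 ± 0.29 FPKM in MT and 12.5 ± 1.35 in Control, and SLC25A38, a glycine carrier, at 4.10 ± 0.40 in MT and 3.85 ± 0.92 in Control (SD, n = 3 each). Their log2 differences were 0.11 and 0.09 over 6 libraries and 0.03 and 0.23 without Control 3. SFXN2 and the ornithine carrier SLC25A15 had -0.04 and 0.04 over 6 libraries and 0.01 and 0.07 without Control 3.

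**Figure D4:**
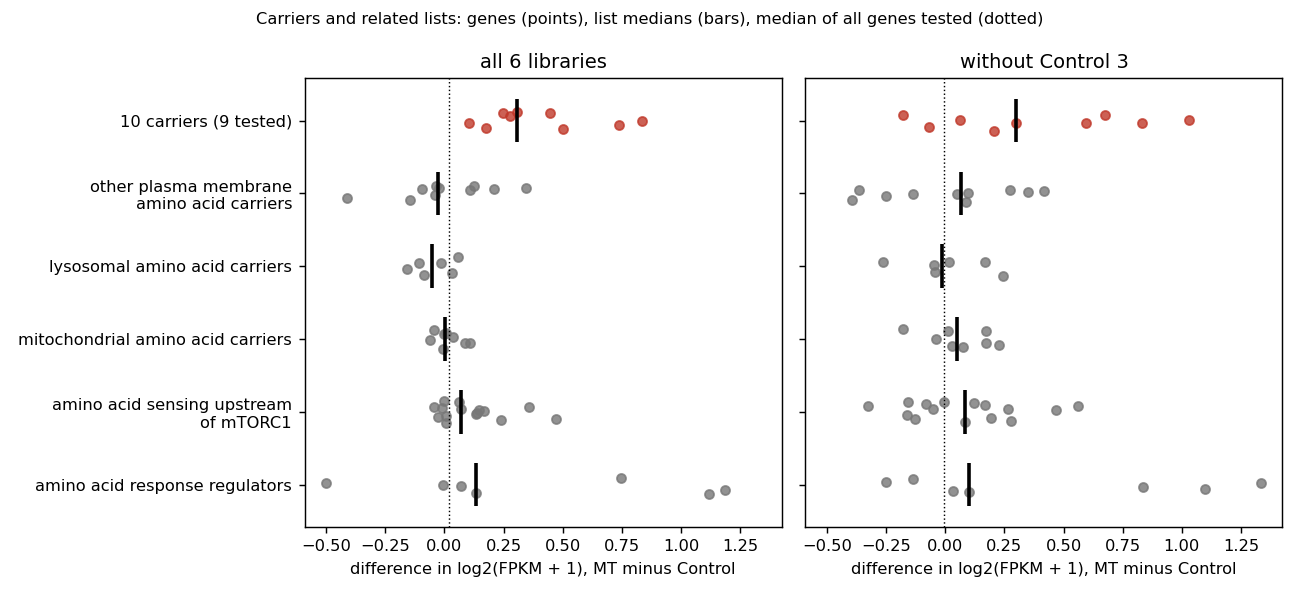
Difference in log2(FPKM + 1), MT minus Control (x axis), of every tested gene (points) of the 10 carriers and of 5 related lists (rows), with list medians as bars and the median of all genes tested as a dotted line, for all 6 libraries (left) and without Control 3 (right). The 9 carriers lie between 0.11 and 0.84 over 6 libraries, and the lysosomal and mitochondrial lists lie close to 0.

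Genes that sense amino acids upstream of mTORC1, the kinase complex that couples growth to nutrients, had a median of 0.07 over the 15 of 20 that were tested, with 11 higher in MT over 6 libraries and 8 without Control 3. The median was 0.08 without Control 3, 0.13 without MT 1, 0.12 without Control 2 and 0.11 without MT 3. None of the 15 passed limma over 6 libraries, and 2 rose without Control 3, against 4.28% of all genes tested. SESN2, a leucine sensor, stood at 9.48, 9.79 and 8.54 FPKM in MT 1 to MT 3, against 5.90, 5.99 and 7.41 in Control 1 to Control 3. The groups did not overlap, which with MT higher held for 1 of these 15 genes and for 6.24% of all genes tested. As in the carriers, MT 2 was the highest and MT 3 the lowest MT library, an order found in 18.1% of all genes tested. Control 3 was above the other Control libraries, as in 93.6% of all genes called higher without it. Its log2 difference was 0.47 (SE 0.13, limma adjusted p 0.74), and 0.56 (SE 0.083, adjusted p 0.024) without Control 3. CASTOR2, which belongs to the family of arginine sensors, had log2 differences of 0.36 (adjusted p 1.0) and 0.47 (adjusted p 0.0496), while the Rag GTPases RRAGB (0.24, and 0.12 without Control 3) and RRAGA (0.14 and 0.20) passed in neither fit.

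In the list of amino acid response regulators, 7 of 9 were tested, and ATF4 itself is not analysed here because no row carried its symbol. The median was 0.13 over 6 libraries, 0.10 without Control 3 and 0.20 without Control 1. Over 6 libraries 0 passed limma, and 3 rose without Control 3, against 4.28% of all genes tested. Of the 7, 3 were higher in every MT library than in any Control library, against 6.24% of all genes tested. EIF2AK4, ATF3 and CEBPG overlapped between the groups, with log2 differences of 0.13, 0.07 and -0.007 over 6 libraries. Without Control 3 these were 0.03, 0.10 and -0.14, and none of them passed in either fit. DDIT3 averaged under 1 FPKM and was not tested. CHAC1, which degrades glutathione, stood at 32.0, 36.6 and 19.5 FPKM in MT 1 to MT 3, against 10.4, 11.0 and 14.8 in Control 1 to Control 3. TRIB3, a pseudokinase that restrains ATF4, stood at 27.3, 31.3 and 19.4 FPKM in MT 1 to MT 3, against 14.1, 13.6 and 16.9 in Control 1 to Control 3. Both were higher in every MT library than in any Control library. As in all 9 carriers tested, MT 2 was the highest and MT 3 the lowest MT library, an order found in 18.1% of all genes tested. Control 3 was the highest Control library, as in SLC7A5, SLC3A2, SLC6A9, SLC1A4 and SLC1A5. That place of Control 3 held for 93.6% of all genes called higher without it. The log2 differences over 6 libraries and without Control 3 were 1.19 and 1.33 for CHAC1 (limma adjusted p 0.43 and 0.031) and 0.75 and 0.84 for TRIB3 (adjusted p 0.66 and 0.039). NUPR1, a stress-induced nuclear protein, also parted the groups, at 27.7 ± 1.46 FPKM in MT and 12.2 ± 0.28 in Control (SD, n = 3 each), but Control 3 did not lie on the MT side of the other Control libraries. NUPR1 had another order within MT, at 29.24, 26.35 and 27.51 FPKM in MT 1 to MT 3. Its log2 difference was 1.12 (limma adjusted p 0.099), and 1.10 (adjusted p 0.0030) without Control 3. The transcription factor CEBPB was lower in every MT library, a pattern found in 546 of the 10950 genes tested. It had 102.2 ± 2.55 FPKM in MT and 149.8 ± 49.3 in Control (SD, n = 3 each), with 205.3 FPKM in Control 3. Its log2 difference was -0.50 (limma adjusted p 1.0), and -0.25 (adjusted p 0.091) without Control 3.

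**Figure D5:**
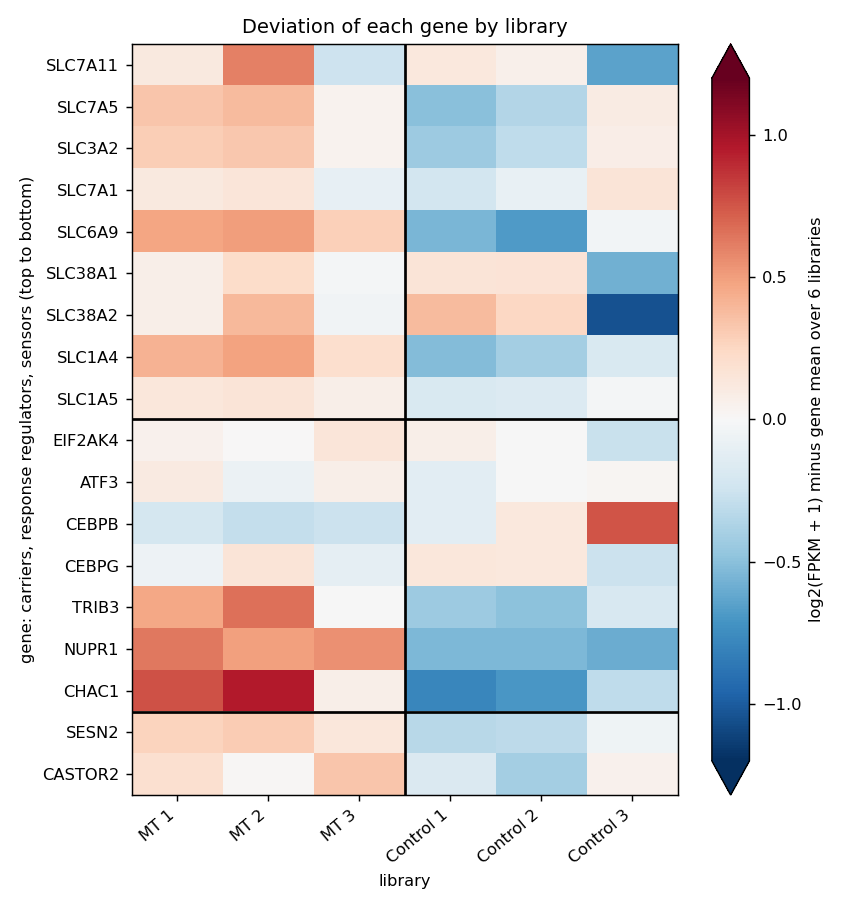
Deviation of log2(FPKM + 1) from each gene's mean over 6 libraries (colour) for the 9 carriers tested, the 7 amino acid response regulators tested, and SESN2 and CASTOR2 (rows, top to bottom), in MT 1 to MT 3 and Control 1 to Control 3 (columns). MT 3 is the lowest MT library for all 9 carriers, and Control 3 is lowest for SLC7A11 (-0.64), SLC38A1 (-0.58) and SLC38A2 (-1.05).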

How the data were processed

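Total RNA of 6 samples was sequenced, and groups and replicate numbers come from the titles. The authors deposited FPKM, 1 column per library. Per the submitters' processing notes, bcl2fastq, HISAT2, featureCounts and Subread were used with the build Sscrofa11.1. Tool versions, the annotation, the strand setting and how reads shared between genes were counted: none was given in the sources used here. Because FPKM is relative to a library's sum, abundant transcripts that change shift every other value.

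Of 20731 identifiers, 13173 were given a symbol. Coordinates are those of the RefSeq annotation of Sscrofa11.1, matched by symbol. Library totals, gene lengths and read numbers were worked out from the steps of the FPKM values, and all 10950 genes averaging at least 1 FPKM gave whole reads within 0.01. Pairs of libraries of a group had a chi-square per degree of freedom of 6.34 to 149, where sampling noise gives about 1, so none was taken as a copy of another. This does not show that they came from separate cultures.

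The 10950 genes were tested in R 4.3.3 by limma 3.58.1 on log2(FPKM + 1) (with a variance trend and a two-sided test, the group being the only term). Changes of low genes come out too small on this scale. Ratios between carriers within a library were compared with an exact permutation test over samples. Of 5 pairs planned, SLC7A5 over SLC43A1 was left out because SLC43A1 was listed at 0 in 3 libraries. The fit and the recovery of reads were also run on simulated data, and the outcome is not given here. The noise simulated for the fit was independent between genes, so no simulated library stood apart as Control 3 does. Tables and plots were made in Python 3.11.15 (pandas 2.3.3, numpy 2.4.6, matplotlib 3.10.9).

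The carriers, the lists and the fit without Control 3 were chosen with earlier results of these data known. Named were all 10 carriers, from each list the 4 genes with the smallest p and those past the threshold in either fit, and the 3 genes nearest in profile to SLC7A11, SLC7A5 and SLC3A2. The remaining amino acid response regulators were named as well. Alternatives changed the pseudocount, the filter, the scaling or the variance model, used voom of limma on recovered reads, added a replicate block, or left out each library in turn. The labels give no batch or date.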

Additional observations from a re-analysis of the deposited data

How the results depend on the processing

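Over 6 libraries 0 of the 10950 genes and 0 of the 10 carriers passed limma, with 517 genes under an unadjusted p of 0.05, and no other pseudocount, filter, scaling or variance model, nor voom on recovered reads (495 genes under an unadjusted p of 0.05), passed a gene. With a library left out, 0 to 1194 genes and 0 to 5 carriers passed, 0 to 2 of the other plasma membrane carriers, 0 to 2 of the sensing genes and 0 to 3 of the response regulators, in each case 0 unless the library was Control 3. Added after seeing the data, the fit without Control 3 passed 1331 genes with median scaling, 1333 with quantile normalisation and 2367 with voom, and the same 5 carriers in each. It passed 2, 2 and 3 of the other plasma membrane carriers, 2, 2 and 3 of the sensing genes and 3, 4 and 3 of the response regulators in that order, and 1 lysosomal carrier with voom. The share of called genes that were higher in MT was 39.3% without Control 3, 50.7% with median scaling, 49.7% with quantile normalisation and 38.4% with voom.

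SLC38A1 and SLC38A2 turned from 0.18 and 0.28 to -0.069 and -0.18 without Control 3, to -0.039 and -0.15 with median scaling as well, to -0.038 and -0.21 with quantile normalisation and to -0.076 and -0.19 with voom, and without any other library they were at most 0.30 and 0.54. The other 7 carriers stayed above 0 in all 19 alternatives. The ratio of SLC7A11 to SLC3A2 turned from 0.18 to -0.14 on log2(FPKM + 1), and with a library left out it ranged over -0.54 (without Control 3) to 0.60 (without Control 1), with -0.14 without MT 2. That of SLC38A1 to SLC38A2 turned from -0.096 to 0.11 without Control 3 and was at the lowest -0.24 with another library left out. The cause was not tested.

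Deviations of same-numbered libraries correlated at -0.44, 0.63 and 0.34 for numbers 1 to 3, and those of differently numbered ones at -0.625 to 0.50. Because Control 3 stood apart from Control 1 and Control 2, these values cannot decide whether the numbers are pairs. The main fit did not take them as pairs. With the replicate block 0 genes and 0 carriers passed, and 499 genes had an unadjusted p under 0.05. SLC43A1, with at most 4 reads, is limited by depth.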
